A study of Mus musculus with 8 samples.

Results

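The Ccr7+ dendritic cells (DC) of the mouse posterior eye were described from 4 single-cell RNA libraries with antibody tags. A cell was a member if it carried at least 1 UMI (a counted RNA molecule) of Ccr7 and of H2-Aa, at least 2 of the 5 genes Fscn1, Ccl22, Cacnb3, Nudt17 and Il4i1, and no UMI of Cd3e or Cd79a. Of 11223 kept cells, 91 met the rule, which is 0.811%. The libraries held live CD45+ cells sorted from eye cups, and the eyes of all mice of a condition were pooled, so that each condition is 1 library. Wild-type (WT) and Nr4a1-/- mice were each taken as a control and after laser. Control mice had no laser burns and are labelled sham. Laser mice received 8 focal burns per eye, which injure the membrane under the retina, and were taken on day 3. All mice were females of 10 to 12 weeks, with 22 per control group and 11 to 12 per laser group. Nr4a1-/- mice lack the nuclear receptor NR4A1 in every cell. The labels give the C57BL/6J strain to all samples, whereas the methods give the Nr4a1-/- line a mixed B6;129S2 origin, so genotype and strain cannot be told apart. The control library of Nr4a1-/- mice also carries another library series number than the other libraries. WT mice gave 7 members in control and 57 after laser, and Nr4a1-/- mice gave 6 and 21. Where 4 values follow each other they are in this order.

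DC take up antigen in tissues and present it to T cells. When a conventional DC matures it lowers uptake, displays more peptide on MHC molecules and costimulatory ligands at its surface, and expresses the chemokine receptor CCR7. CCR7 guides the cell along the ligands CCL19 and CCL21 into lymphatic vessels and to the lymph node. Conventional DC of type 1 (cDC1) and type 2 (cDC2) both enter this state, and it shares a set of genes for migration, NF-kB signalling and T cell regulation whatever the subset.

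The members were chosen by UMIs of Ccr7, H2-Aa, the 5 genes above, Cd3e and Cd79a, so the levels of these genes are given as a description. Ccr7 stood at 3208, 2456, 1984 and 1679 CPM (UMIs scaled to an equal total) in the summed members of the libraries. Fscn1, which codes for the actin-bundling protein fascin, stood at 1234, 612, 707 and 531 CPM. Ccl22, a chemokine that draws CCR4+ T cells, stood at 377, 285, 136 and 238 CPM, and Il4i1, a secreted amino acid oxidase, at 319, 437, 503 and 458 CPM. Il4i1 was detected in 85 of the 91 members, Fscn1 in 70, Cacnb3 in 70, Ccl22 in 59 and Nudt17 in 38. Cacnb3 had a UMI in 76.9% of members, in 0.248% of B cells and in 0.524% of microglia, at median depths of 12032, 4454.5 and 9102.5 UMIs. Fscn1 was in 1.43% of B cells but in 57.3% of microglia, so it does not set the members apart from microglia on its own. Of the 91 members, 19 carried exactly 2 of the 5 genes, 24 carried 3, 28 carried 4 and 20 carried all 5. Another 49 cells carried 1 of the 5 and stayed outside. Tmem123, a gene of mature DC, stood at 255 CPM in the members with 2 genes, at 221 CPM in the 49 cells outside and at 1457 CPM in those with 4 or 5. Cd200 stood at 32.9, 15.8 and 486 CPM in the same order. By both genes the members with 2 of the 5 lay nearer to the cells just outside than to the members with 4 or 5.

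The members were set against both other conventional DC classes of the same libraries, which carry no Ccr7 UMI. The cDC2-like class held 123 cells with H2-Aa, Cd209a and Flt3 and no Xcr1 or Clec9a, and the cDC1-like class held 171 cells with H2-Aa and at least 2 of Xcr1, Clec9a, Snx22, Gcsam and Cadm1. UMIs were summed for each class in each library and tested with edgeR's quasi-likelihood test with the library as a block, and the genes of the gates were left out. The gates read RNA of the same cells, so the RNA calls describe the populations that the gates cut, whereas no gate read the antibody tags. Against cDC2-like cells 635 of 7913 genes rose (8.02% of those tested) and 602 fell (7.61%). Against cDC1-like cells 1023 of 8005 genes rose (12.8%) and 791 fell (9.88%). Counts of called genes of a list, given below, are to be read beside these shares. Of 7501 genes tested in both comparisons, 532 rose and 268 fell in both. The WT laser library carries 57 of the 91 members, and without it the calls against cDC2-like cells were 299 higher and 188 lower. Values with an SE are log2 fold changes. The libraries were not replicates of 1 condition, so the residual holds the spread of the class difference over 4 conditions. The test also shares its estimate of spread among genes. A small p-value thus does not mean that the level of a gene was alike in the 4 libraries.

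The members were described with 20 markers of migratory DC, a list chosen with earlier results of these data known. Both other classes carry no Ccr7 UMI by their gates, so these markers are not an independent check of the label. Of the 14 markers that no gate read, 12 were higher and 1 lower than in cDC2-like cells, with a median log2 fold change of 2.29 beside -0.14 over all genes tested. Against cDC1-like cells all 14 were higher, with a median of 3.56 beside -0.10 over all genes. Samsn1, an adaptor that limits lymphocyte receptor signalling, stood at 2279, 2390.1, 1495 and 1221 CPM against 243 to 460.4 in cDC2-like cells (2.42 ± 0.23 SE, adjusted p = 1.3e-23). Tmem123 stood at 1814, 1101, 897 and 886 CPM against 76.5 to 186 (3.40 ± 0.26 SE, adjusted p = 2.6e-35). The exception was Ccl17, which was lower than in cDC2-like cells (-0.99 ± 0.37 SE, adjusted p = 0.047) and higher than in cDC1-like cells (1.84 ± 0.48 SE, adjusted p = 0.0011). Of other lineages, the 9 B cell markers summed to 13.6 to 73.3 CPM in the members, with Cd79a, Ighd and Fcmr among those at 0, and the 10 T cell markers to 27.2 to 104 CPM, with Cd3e, Cd3d and Lat at 0. Cd3e and Cd79a are at 0 by the rule. The T cell marker Tcf7 was found in 28 members with 69 UMIs and had 0 in cDC2-like cells, so that it was at least 34.6-fold higher, with 3 UMIs over the class as the floor. The other T cell markers were too low to be tested. The 10 macrophage markers summed to 87.1, 1126, 54.4 and 2724 CPM over the libraries, against 429 to 1732 CPM in cDC2-like cells and 93.8 to 524 CPM in cDC1-like cells. The 6 neutrophil markers stood at 498 CPM in WT laser and at 0 to 24.4 CPM in the other libraries. Of these, S100a8 was found in 5 and S100a9 in 3 of the 57 WT laser members, with 65.2% and 60.1% of their UMIs in 1 cell. No member shared its barcode with a cell of another library, although 18 barcode sequences occurred in more than 1 library.

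Members made up a larger share of the sort in both laser libraries. They were 0.186% of kept cells in WT control (95% interval 0.0748 to 0.383) and 1.5% in WT laser (1.14 to 1.94). In Nr4a1-/- mice they were 0.297% (0.109 to 0.645) in control and 1.27% (0.790 to 1.94) in laser. The laser share was 8.08 times the control share in WT (3.68 to 21) and 4.29 times in Nr4a1-/- (1.67 to 13). With 1 library per condition this difference has no replicate check, and the exact Clopper-Pearson and conditional binomial intervals cover counting error only. The share of cDC2-like cells after laser was 2.74 times the control in WT (1.64 to 4.76) and 0.700 times the control in Nr4a1-/- (0.354 to 1.34). The share of cDC1-like cells stood at 1.43 (0.943 to 2.18) and 1.58 (0.964 to 2.61) times the control. Of the 3 DC classes together, members went from 10.1% to 32.8% in WT and from 9.23% to 27.3% in Nr4a1-/- eyes. The laser share within the DC was 3.23 times the control in WT (1.47 to 8.39) and 2.95 times in Nr4a1-/- (1.15 to 8.95). Between the genotypes the intervals of the share included 1, at 1.6 (0.443 to 5.55) in control and 0.847 (0.488 to 1.42) in laser eyes. These shares are of a sort enriched for CD45+ cells and do not count cells per eye.

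**Figure D1:**
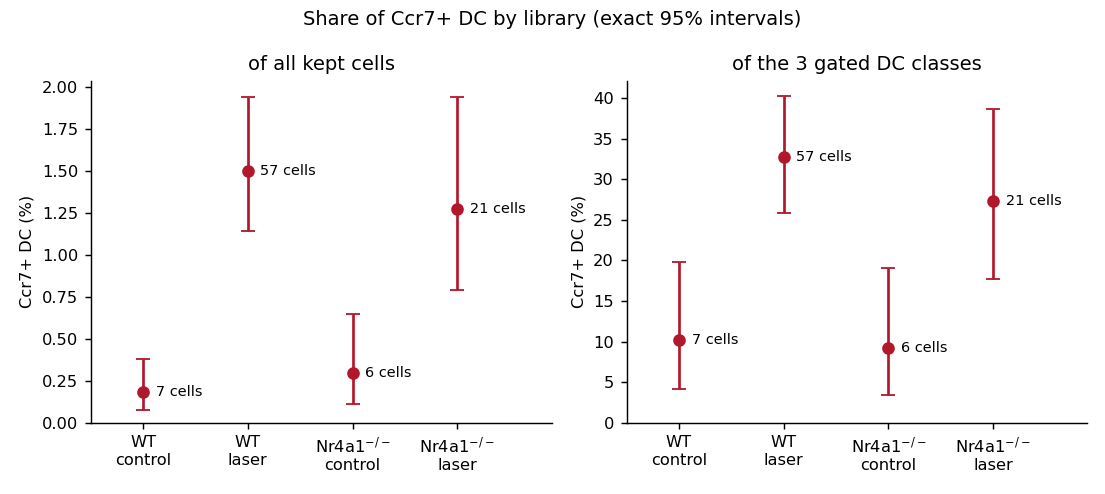
Share of Ccr7+ DC in each library, in percent of all kept cells (left) and of the 3 gated DC classes (right); points are shares, bars are exact 95% intervals and the labels give the cells. Both laser libraries lie above both control libraries, at 1.5% and 1.27% against 0.186% and 0.297% of kept cells.

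The antibody tags (ADT), which count surface protein, were read by no gate, and MHC class II was one of those that differed from cDC2-like cells. I-A/I-E, the MHC class II protein itself, averaged 805, 1356, 973 and 542 ADT UMIs per member, against 250.2, 264, 197 and 189 per cDC2-like cell and 164, 258, 192 and 92.2 per cDC1-like cell. The groups did not overlap, and the ratio to cDC2-like cells ran from 2.87 to 5.14 within a library. H2-Ab1, the RNA of the beta chain of I-A, stood at 6154, 4734, 6456 and 6211 CPM in the members and at 8845 to 10266 in cDC2-like cells, a fall in every library (-0.71 ± 0.17 SE, adjusted p = 7.4e-04). H2-Eb1, the beta chain of I-E, did not pass the test (-0.22 ± 0.17 SE, adjusted p = 0.47), and H2-Aa was read by the gate and not tested. Cd74, the invariant chain that guides class II to the endosome, stood at 12657, 12267, 13823 and 17026 CPM against 18383 to 24103 (-0.65 ± 0.16 SE, adjusted p = 8.6e-04). H2-DMa and H2-DMb1, which load peptide onto class II, fell by 1.51 and 1.6 on the log2 scale. H2-DMb1 stood at 226 to 353 CPM in the members, below the 637 to 938 of cDC2-like and the 865 to 918 of cDC1-like cells. Of 14 class II presentation genes tested, 2 rose and 4 fell against cDC2-like cells, and those that rose were Lgmn, a lysosomal protease, and Cd1d1.

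In the ADT test 6 of 86 tags rose against cDC2-like cells (6.98%) and 3 fell (3.49%). I-A/I-E was higher by 1.45 ± 0.20 SE, adjusted p = 8.8e-10. CD86, a ligand of CD28 on T cells, averaged 0.429, 12.1, 15.7 and 3.57 per member against 0.143, 1.29, 0.821 and 0.688 per cDC2-like cell (2.52 ± 0.43 SE, adjusted p = 5.1e-07). Its level was lowest in WT control, and it was above cDC2-like cells in each library. In WT control both means rest on few UMIs, from 7 members and 21 cDC2-like cells. Against cDC1-like cells, which averaged 0.61, 3.17, 1.77 and 0.575, it was below them in WT control and above in the other libraries (1.47 ± 0.47 SE, adjusted p = 0.07). CD274, the checkpoint ligand PD-L1, averaged 1.43, 3.16, 2.17 and 1.86 against 0.714, 0.655, 0.286 and 0.375 (1.58 ± 0.33 SE, adjusted p = 7.7e-05). CD54, the adhesion molecule ICAM-1, averaged 94.7, 75.1, 115 and 44.5 against 27.4, 18.7, 24.2 and 22.7 (1.24 ± 0.25 SE, adjusted p = 5.0e-05). CD120b, the TNF receptor 2, and CD80, the other CD28 ligand, were also higher (1.48 ± 0.33 SE, adjusted p = 1.8e-04 and 0.85 ± 0.29 SE, adjusted p = 0.035). CD80 averaged 1.52 to 3.49 and CD120b 1.1 to 3.5 per member. Tags of other lineages reached similar levels. Ly-6G, a tag of neutrophils, averaged 1.14, 2.33, 3.17 and 1.9 per member and 3, 1.97, 3.39 and 1.38 per cDC2-like cell. The CD3 tag averaged 0.429, 2, 1.83 and 0.952 per member, although no member had a Cd3e UMI. Unspecific binding was not subtracted from any tag. The tags that fell were CD11b, an integrin of cDC2 (-1.09 ± 0.24 SE, adjusted p = 1.8e-04), CD301b, the lectin coded by Mgl2 (-1.43 ± 0.40 SE, adjusted p = 0.0049), and CD45 (-0.77 ± 0.24 SE, adjusted p = 0.015).

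Against cDC1-like cells 3 tags rose (3.49%) and 3 fell (3.49%). CD103, an integrin of cDC1, averaged 0.286, 1, 3.5 and 0.524 per member against 7.29, 4.08, 41.5 and 3.27 per cDC1-like cell (-3.69 ± 0.64 SE, adjusted p = 0.0019). CD11a was lower too (-2.46 ± 0.58 SE, adjusted p = 0.012), and CD196, the chemokine receptor CCR6, was called lower in this test (-1.24 ± 0.36 SE, adjusted p = 0.048), although it was higher in the members than in cDC1-like cells in Nr4a1-/- laser. CD80 (2.02 ± 0.41 SE, adjusted p = 0.005), CD274 (1.76 ± 0.37 SE, adjusted p = 0.005) and CD120b (1.15 ± 0.34 SE, adjusted p = 0.048) were higher in the members. I-A/I-E missed the threshold here (1.76 ± 0.60 SE, adjusted p = 0.087) although no library overlapped. It passed in the same test when tags were scaled per cell (log2 fold change 2.40, adjusted p = 2.9e-75), a scaling chosen after the data were seen. Without the Nr4a1-/- laser library no tag passed the threshold against cDC1-like cells, with 11 at an unadjusted p under 0.05, and without WT control 1 rose and 0 fell. The calls of the weaker tags changed with the scaling. I-A/I-E alone made up 75.8% of the ADT UMIs of members and 42.8% of those of cDC2-like cells. Members carried 752 to 1752 ADT UMIs per cell and cDC2-like cells 356 to 671. Scaled per cell, 7 tags rose and 0 fell against cDC2-like cells, and 8 rose and 2 fell against cDC1-like cells. Scaled to total ADT UMIs, 3 rose and 29 fell, and 1 rose and 4 fell. CD86, CD54 and I-A/I-E were higher than in cDC2-like cells under each of these scalings, and CD103 and CD11a were lower than in cDC1-like cells under each. CD274, CD120b and CD80 did not pass the test when scaled to total ADT UMIs, CD196 was not called against cDC1-like cells per cell or on total ADT UMIs, and CD11b, CD301b and CD45 were not called lower than in cDC2-like cells per cell.

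**Figure D2:**
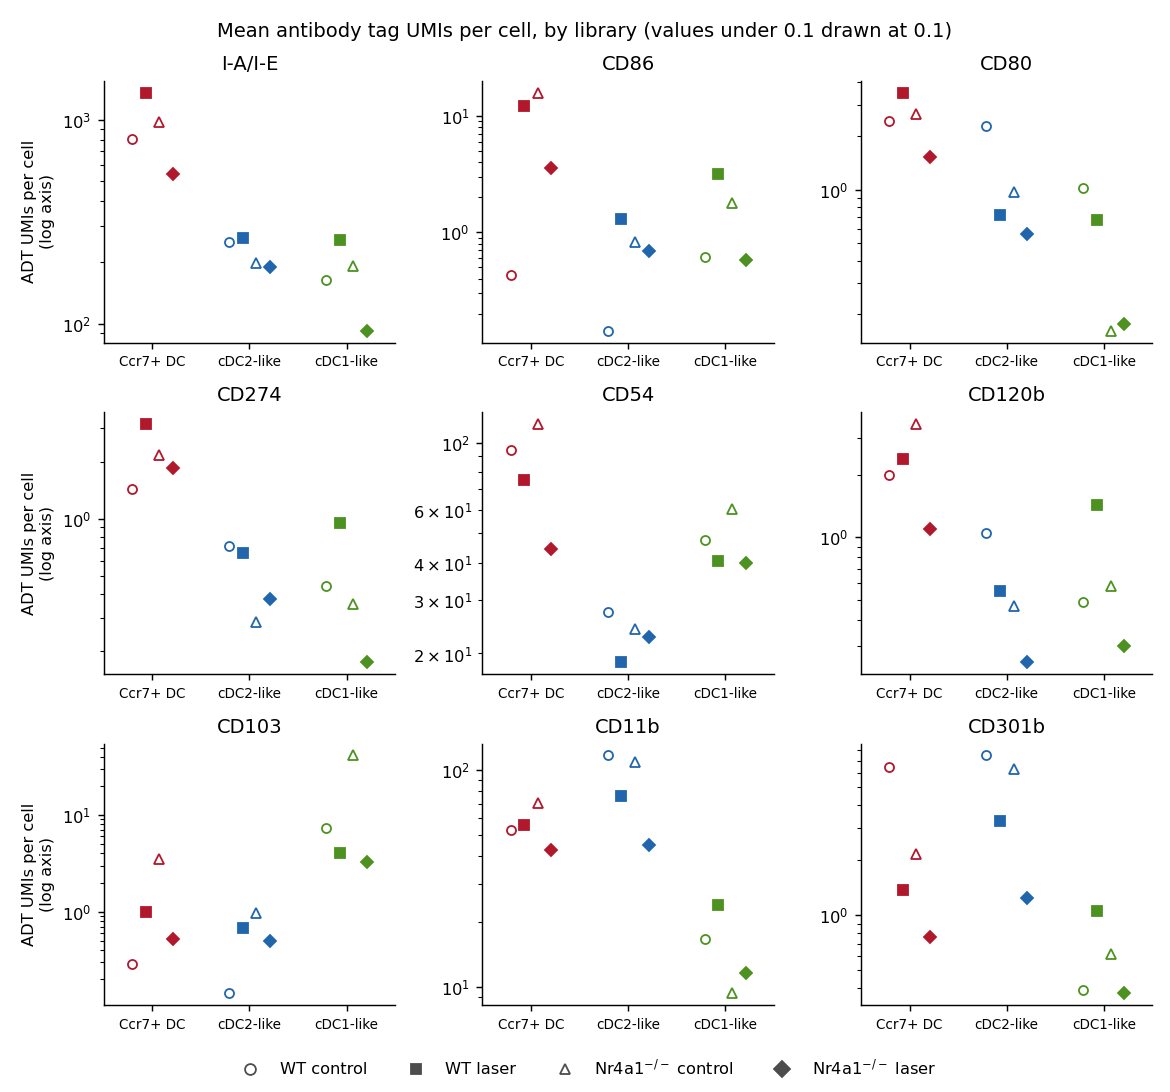
Mean ADT UMIs per cell (log axis) of 9 surface proteins in the Ccr7+ DC, cDC2-like and cDC1-like cells, with 1 symbol per library, open for control and filled for laser. I-A/I-E lies at 542 to 1356 in the members and at 189 to 264 in cDC2-like cells, and CD103 at 0.286 to 3.5 in the members and 3.27 to 41.5 in cDC1-like cells.

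Among secreted signals the members stood apart in Il12b, Ccl5 and Cxcl16. Il12b codes for the p40 chain of the T cell-polarizing cytokines IL-12 and IL-23, and stood at 2308, 298, 1998 and 495 CPM in the members, against 0 to 3.36 in cDC2-like and 1.05 to 87.2 in cDC1-like cells (adjusted p = 2.5e-84 and 8.1e-04). It was high in both control libraries and lower in both laser libraries. With 614 UMIs against 3, the ratio to cDC2-like cells was 308-fold, 95% interval 105 to 1498. In Nr4a1-/- control 1 cell held 81.6% of the Il12b UMIs. An Il12b UMI was found in 40 of the 91 members, against 0.434% of B cells and 1.18% of microglia. Ccl5, a chemokine for T cells, stood at 9812, 4724, 8848 and 1698 CPM against 8.5 to 50.1 in cDC2-like cells (8.49 ± 0.43 SE, adjusted p = 4.6e-15). Against cDC1-like cells the libraries did not overlap either, at 3.54 to 251 CPM there, but the test missed the threshold (6.31 ± 1.23 SE, adjusted p = 0.06). Ccl5 had a UMI in 75.8% of members, 8.06% of B cells and 16.8% of microglia. Cxcl16, a membrane-bound ligand of CXCR6, stood at 1089, 798, 788 and 678 CPM against 202 to 382 (1.64 ± 0.24 SE, adjusted p = 1.0e-09). Of 12 chemokine ligands tested, 2 rose and 3 fell against cDC2-like cells, beside 8.02% and 7.61% of all genes tested. The fallers were the neutrophil attractant Cxcl2 (-2.07), Ccl6 (-1.83) and Ccl17. Of 12 cytokines tested, 2 rose and 1 fell, beside the same shares of all genes. Il15, which sustains memory CD8 T and NK cells, rose (1.88 ± 0.56 SE, adjusted p = 0.0084) beside its presenting receptor Il15ra (4.86 ± 0.59 SE, adjusted p = 2.0e-14), whereas Il18 fell (-1.81 ± 0.56 SE, adjusted p = 0.011). Il1b, an inflammatory cytokine, stood at 1959, 2045, 1115 and 2186 CPM against 1954 to 3020.2 and did not pass the test (adjusted p = 0.17), but it rose against cDC1-like cells (0.92 ± 0.22 SE, adjusted p = 3.4e-04). Against cDC1-like cells 6 rose and 1 fell of 10 cytokines, and 5 rose and 2 fell of 12 chemokine ligands, Ccl17 among those that rose.

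Of 17 cytokine receptors 5 rose and 4 fell against cDC2-like cells. Tnfrsf4, the receptor OX40, stood at 58.1, 90.5, 258 and 67.2 CPM and had 103 UMIs in the members and 2 in all cDC2-like cells, a ratio of 77.5-fold, 95% interval 20.9 to 649. Il21r stood at 241 to 348 CPM against 20.5 to 78.7 (2.51 ± 0.33 SE, adjusted p = 3.5e-12), and Il2ra, the high-affinity IL-2 receptor chain CD25, at 13.6 to 156 against 2.93 to 85 (1.73 ± 0.44 SE, adjusted p = 0.0012). Il6ra fell (-1.83), and so did Ltbr, with 2 UMIs against 25, a ratio of 0.12-fold, 95% interval 0.0138 to 0.483. Of 9 tested chemokine receptors and related guidance genes besides Ccr7, 1 rose and 2 fell against cDC2-like cells, beside 8.02% and 7.61% of all genes tested. Ccr2, which draws monocytes and DC precursors into tissue, stood at 0, 40.6, 68 and 104 CPM against 179 to 484 in cDC2-like and 193 to 241 in cDC1-like cells (-2.75 ± 0.34 SE, adjusted p = 4.9e-13 and -2.0 ± 0.33 SE, adjusted p = 3.5e-08), and was below both classes in every library. Ptger4, the prostaglandin E2 receptor EP4 that promotes DC migration, rose (0.83 ± 0.30 SE, adjusted p = 0.042 and 1.76 ± 0.30 SE, adjusted p = 7.0e-08).

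Genes of the NF-kB pathway, which switches on inflammatory and maturation genes, rose against both classes, in larger number against cDC1-like cells. Of 23 genes tested 9 rose and 1 fell against cDC2-like cells, with a median log2 fold change of 0.70, and 21 rose and 0 fell of 23 against cDC1-like cells, with a median of 1.76. Relb, the subunit of the non-canonical arm, stood at 899.9, 801, 843 and 617 CPM against 122 to 217 in cDC2-like and 45.7 to 97.5 in cDC1-like cells (2.17 ± 0.26 SE, adjusted p = 3.1e-15 and 3.35 ± 0.26 SE, adjusted p = 3.7e-35). Its partner Nfkb2 stood at 203, 153, 109 and 128 CPM against 57.2 to 86.2 (1.01 ± 0.34 SE, adjusted p = 0.022). Birc2, a ubiquitin ligase that keeps the pathway's kinase NIK low, rose (2.94 ± 0.34 SE, adjusted p = 2.6e-16), as did Traf3, its adaptor (1.99 ± 0.31 SE, adjusted p = 5.4e-09), and Map3k14, which codes for NIK (1.20 ± 0.28 SE, adjusted p = 2.6e-04). The inhibitor Tnip3 fell against cDC2-like cells (-1.66) and rose against cDC1-like cells (1.22).

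Promoters of list genes with an NF-kB motif are shown as examples. The motif of 10 letters, GGG and TTTCC with any 2 bases between them, was searched on both strands of the 250 bases before and 50 after each RefSeq start (build GRCm38.p6). It was in 1.63% of 32851 promoters and in a promoter of 1.89% of 27025 genes. Of the 20 genes of the NF-kB list with a promoter in the table, 6 held it (Rel, Nfkb2, Nfkbia, Tnfaip3, Traf2 and Traf3), 1 of 16 genes of the class I list held it (B2m), and 0 of 14 genes of the regulatory list and 0 of the 5 gate genes in the table held it. A match is only a run of letters. Promoters of Nfkb2 (chr19:46304487-46304786, + strand), Traf3 (chr12:111166120-111166419, + strand) and B2m (chr2:122147437-122147736, + strand), the light chain of MHC class I, are printed 5′ to 3′ with the match in capitals.
Nfkb2: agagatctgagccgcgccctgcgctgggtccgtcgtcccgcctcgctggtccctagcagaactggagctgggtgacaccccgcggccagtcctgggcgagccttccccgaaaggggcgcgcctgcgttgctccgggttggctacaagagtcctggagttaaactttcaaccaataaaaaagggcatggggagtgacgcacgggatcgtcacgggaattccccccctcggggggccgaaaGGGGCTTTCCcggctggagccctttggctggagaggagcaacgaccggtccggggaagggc
Traf3: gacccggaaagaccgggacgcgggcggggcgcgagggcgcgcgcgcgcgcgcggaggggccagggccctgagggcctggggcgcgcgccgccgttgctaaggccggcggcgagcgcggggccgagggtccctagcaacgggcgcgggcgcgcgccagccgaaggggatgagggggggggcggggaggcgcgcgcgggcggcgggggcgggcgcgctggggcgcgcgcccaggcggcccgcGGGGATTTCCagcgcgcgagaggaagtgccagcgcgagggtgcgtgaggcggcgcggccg
B2m: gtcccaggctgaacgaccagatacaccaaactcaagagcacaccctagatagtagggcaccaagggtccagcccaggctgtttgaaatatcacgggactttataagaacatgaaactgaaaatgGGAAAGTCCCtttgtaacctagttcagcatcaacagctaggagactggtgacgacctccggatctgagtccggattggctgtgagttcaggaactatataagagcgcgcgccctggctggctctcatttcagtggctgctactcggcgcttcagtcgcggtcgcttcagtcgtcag

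Of 30 DC transcription factor genes 12 rose and 3 fell against cDC2-like cells and 17 rose and 3 fell of 30 against cDC1-like cells. Irf8, which drives the cDC1 fate, stood at 479, 253, 516 and 202 CPM, above the 14.7 to 71.6 of cDC2-like cells (3.51 ± 0.35 SE, adjusted p = 1.0e-21) and below the 586 to 641 of cDC1-like cells (-0.85 ± 0.24 SE, adjusted p = 0.0029). Irf4, which is needed by cDC2 and for DC migration, stood at 102, 66.9, 13.6 and 36.6 CPM against 93.8 to 129 and 0 to 10.9. It rose against cDC1-like cells (3.38 ± 0.59 SE, adjusted p = 2.1e-07) and did not pass the test against cDC2-like cells (adjusted p = 0.058). Id2, an inhibitor of E proteins, rose against both (2.92 ± 0.27 SE, adjusted p = 1.6e-25 and 1.43 ± 0.23 SE, adjusted p = 2.4e-08). Spib had 32 UMIs in the members and 0 in cDC1-like cells, and was at least 23-fold higher, with 3 UMIs over the class as the floor. Klf2, which holds leukocytes in a resting state, fell against both classes.

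**Figure D3:**
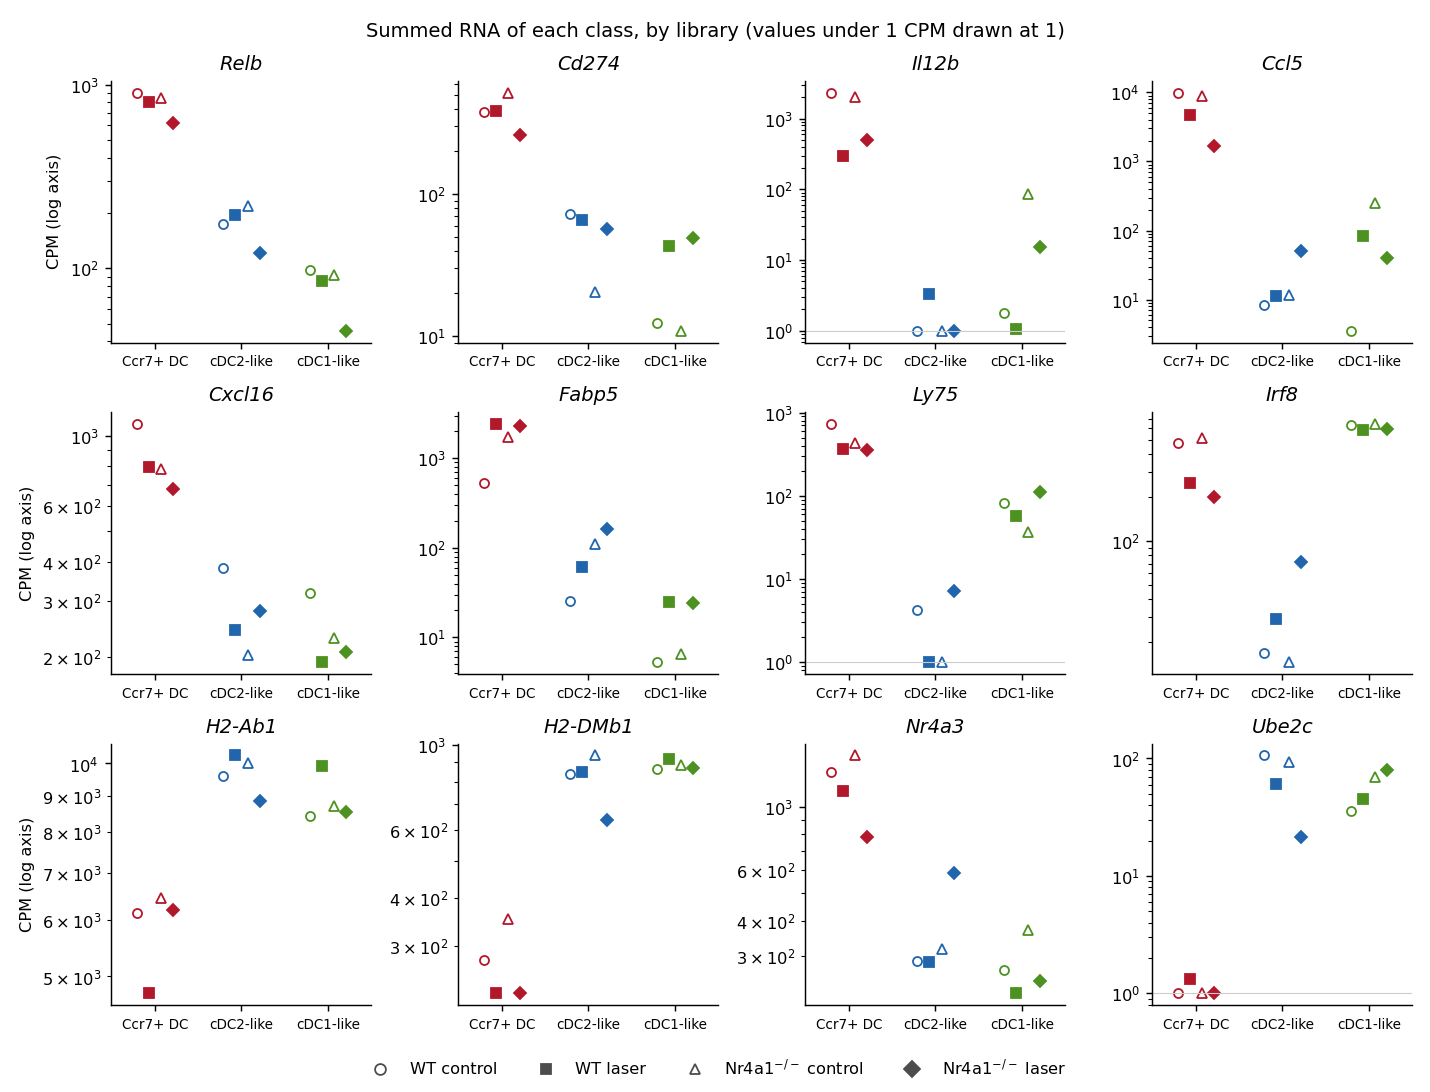
CPM (log axis) of 12 genes in the summed Ccr7+ DC, cDC2-like and cDC1-like cells of each library, open symbols for control and filled for laser. Relb, Cd274, Cxcl16 and Nr4a3 lie above both other classes in all 4 libraries, H2-Ab1, H2-DMb1 and Ube2c below both, and Irf8 between them.

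Most tested genes of the regulatory and checkpoint list rose, and part of the costimulation list did. Of 14 regulatory and checkpoint genes 9 rose and 1 fell against cDC2-like cells, with a median of 1.71, and 12 rose and 1 fell of 14 against cDC1-like cells. Cd274, the RNA of PD-L1, stood at 377, 387, 516 and 263 CPM against 20.5 to 72.2 and 10.9 to 48.7 (2.88 ± 0.32 SE, adjusted p = 3.3e-17), the same direction as its tag. The tags CD40, CD95 (of Fas) and CD192 (of Ccr2) were not called against either class. Their log2 fold changes against cDC2-like and cDC1-like cells were 1.02 and 0.90, -0.47 and -1.13, and 0.61 and 0.48. The RNA of Cd40 and Fas rose against both classes and that of Ccr2 fell. Cd200, a ligand that quiets myeloid cells, stood at 319, 391, 163 and 128 CPM, with 353 UMIs in the members against 4 in cDC2-like and 12 in cDC1-like cells (6.87 ± 0.54 SE, adjusted p = 1.0e-34). Socs2, a suppressor of cytokine signals, stood at 218, 219, 136 and 250.4 CPM against 0 to 5.86 (5.71 ± 0.50 SE, adjusted p = 1.6e-27). Tnfrsf11a, the receptor RANK, and Socs1 also rose (2.58 and 2.39), whereas Socs3 fell against cDC2-like cells (-1.42 ± 0.31 SE, adjusted p = 7.3e-05) and rose against cDC1-like cells (1.54 ± 0.36 SE, adjusted p = 1.7e-04). Of 11 costimulation genes 4 rose and 1 fell. Cd40, the receptor of T cell help, stood at 392, 169, 272 and 244 CPM against 78.7 to 166 and 9.13 to 33.5 (1.11 ± 0.30 SE, adjusted p = 0.0024 and 3.59 ± 0.33 SE, adjusted p = 3.9e-25). Tnfrsf9, the receptor 4-1BB, stood at 29, 148, 40.8 and 305 CPM against 0 to 7.16 (84.3-fold, 95% interval 28.4 to 413), Icosl at 145, 31.5, 149.5 and 18.3 against 14.3 to 29.7 (1.67 ± 0.48 SE, adjusted p = 0.0054), and Cd83, which stabilizes class II at the surface, at 2917, 1469.7, 2012 and 1063 against 623 to 1767 (0.58 ± 0.21 SE, adjusted p = 0.034). Cd48 fell (-2.31 ± 0.38 SE, adjusted p = 5.0e-08). Cd86 and Cd80 RNA stood at 586 to 1234 and 128 to 581 CPM and had adjusted p of 0.85 and 0.16 against cDC2-like cells.

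Class I genes were called higher more often than lower, and lectins of antigen uptake differed in direction between the comparisons. Of 19 class I genes 11 rose and 0 fell against cDC2-like cells and 8 rose and 2 fell of 19 against cDC1-like cells. Nlrc5, the transactivator of class I genes, stood at 464, 207, 258 and 140.5 CPM against 26.4 to 71.6 (2.48 ± 0.34 SE, adjusted p = 1.5e-11). Psme2, a proteasome activator, stood at 827, 688, 788 and 519 CPM against 140.2 to 208 (2.08 ± 0.26 SE, adjusted p = 1.7e-13), and the class Ib gene H2-Q7 at 373 to 784 against 93 to 169.9 (1.85 ± 0.28 SE, adjusted p = 1.0e-09). H2-Q7 shares sequence with other H2 genes, so reads may be split among them. Tap1, a subunit of the peptide transporter, rose against cDC2-like cells (1.20 ± 0.33 SE, adjusted p = 0.0039) and stood at 97.7 to 218 CPM against 102 to 177 in cDC1-like cells (adjusted p = 0.69). Of 20 uptake and pattern recognition genes 1 rose and 9 fell against cDC2-like cells, with a median of -1.62. Against cDC1-like cells 7 rose and 4 fell of 17, with a median of 1.15. Clec10a (-2.82 ± 0.36 SE, adjusted p = 9.3e-13), Cd209d (-3.31 ± 0.55 SE, adjusted p = 8.2e-08) and Mgl2 (-1.91 ± 0.28 SE, adjusted p = 7.0e-10), lectins that cDC2 express, fell against cDC2-like cells, and Cd209d sits in the family of the gate gene Cd209a. Mgl2 and Clec10a were called higher against cDC1-like cells (adjusted p = 6.8e-10 and 0.019), but Clec10a turned lower there, without passing the test, in members with 3 of 5 genes and after thinning. The gene that rose against cDC2-like cells was Ly75, which codes for the endocytic receptor DEC-205. Ly75 stood at 726, 368, 435 and 354 CPM, with 421 UMIs against 2 in cDC2-like cells (317-fold, 95% interval 87.2 to 2626), and rose against cDC1-like cells too (2.77 ± 0.28 SE, adjusted p = 9.8e-22).

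Motility, lipid and survival genes changed in part. Of 24 cytoskeleton genes 11 rose and 3 fell against cDC2-like cells. Anxa3, a membrane-binding annexin, stood at 449.9, 399.9, 272 and 336 CPM against 8.5 to 28.6 (4.11 ± 0.36 SE, adjusted p = 2.6e-27), Myo1g, a membrane myosin, at 493, 399.9, 584 and 299 against 64.4 to 214 (1.75 ± 0.28 SE, adjusted p = 2.0e-08), and Swap70, a Rac-binding protein, at 232 to 479 against 79.5 to 174 (1.63 ± 0.29 SE, adjusted p = 9.5e-07). Cd63, a tetraspanin of late endosomes, stood at 1147, 666, 584 and 1014 CPM against 17 to 122 (3.93 ± 0.29 SE, adjusted p = 1.7e-38), while the actin-severing Gsn fell (-1.76 ± 0.36 SE, adjusted p = 1.8e-05). Of 14 vesicle and lipid genes 5 rose and 2 fell. Fabp5, a fatty acid-binding protein, stood at 537, 2407, 1726 and 2302 CPM against 25.5 to 165 and 5.32 to 25.1 (4.43 ± 0.27 SE, adjusted p = 1.2e-56), and WT control was the lowest of the libraries. Of 17 apoptosis genes 7 rose and 2 fell. Bcl2 had 7 UMIs in the members against 63 in cDC2-like cells (-2.84 ± 0.67 SE, adjusted p = 3.4e-04), whereas Bcl2a1b, a relative that NF-kB induces, rose (1.67 ± 0.23 SE, adjusted p = 2.5e-11). Bcl2a1b shares sequence with its Bcl2a1 neighbours, so its reads may be split among them. Bcl2l14 stood at 523, 132, 924 and 48.9 CPM against 0 to 5.86 (6.88 ± 0.51 SE, adjusted p = 5.7e-39).

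Cell cycle and immediate-early genes were lower. Of 14 cell cycle genes 0 rose and 6 fell against cDC2-like cells, and 0 rose and 9 fell of 15 against cDC1-like cells. Top2a, the topoisomerase of dividing cells, had 11 UMIs in all members against 184 and 197 (-3.54 ± 0.52 SE, adjusted p = 7.9e-10), and Ube2c 1 against 114 and 121 (0.0132-fold, 95% interval 0.000332 to 0.0751 of the cDC2-like level). Of 21 immediate-early and dissociation genes 1 rose and 13 fell against cDC2-like cells, but 2 rose and 3 fell of 21 against cDC1-like cells. Egr1 stood at 131, 94.4, 13.6 and 109.9 CPM against 136 to 837 (-2.13 ± 0.33 SE, adjusted p = 6.3e-09), and Jund at 479, 719.8, 693 and 544 against 909 to 1775 (-1.17 ± 0.22 SE, adjusted p = 3.9e-06). Hspa1a, a heat shock chaperone, was high in the Nr4a1-/- control library in each class, at 29, 10.5, 163 and 12.2 CPM in the members and 34, 40.3, 1296 and 107 CPM in cDC2-like cells. Of 26 interferon-stimulated genes 7 rose and 1 fell against cDC2-like cells and 12 rose and 2 fell of 25 against cDC1-like cells. Isg15 stood at 29, 509, 231 and 287 CPM against 34 to 242 (1.27 ± 0.32 SE, adjusted p = 0.0011), and 1 cell held 43% of its UMIs in the WT laser library. In Nr4a1-/- eyes 1 cell held 82.4% in the control and 78.7% in the laser library. Of 16 glycolysis genes 1 rose and 2 fell against cDC2-like cells, beside 8.02% and 7.61% of all genes tested. Pfkfb3, which speeds glycolysis through fructose bisphosphate, rose (1.91 ± 0.34 SE, adjusted p = 4.1e-07), whereas Ldha fell (-0.98 ± 0.32 SE, adjusted p = 0.016).

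Of the Nr4a family, which comprises the orphan nuclear receptors of the deleted gene, Nr4a3 was higher in these cells. Nr4a3 stood at 1321, 1134, 1509 and 782 CPM against 287 to 587 in cDC2-like and 223 to 371 in cDC1-like cells, above both in every library (1.74 ± 0.23 SE, adjusted p = 1.0e-11 and 2.12 ± 0.24 SE, adjusted p = 2.0e-17). Nr4a1 stood at 203, 172, 109 and 24.4 CPM against 71.6 to 340.3 (adjusted p = 0.2), and Nr4a2 at 348, 312, 489 and 379 against 306 to 501 (adjusted p = 0.92). In the members the Nr4a1 level of Nr4a1-/- cells was 0.535 (0.194 to 1.37) times that of WT cells in control and 0.142 (0.0382 to 0.373) times in laser eyes. UMIs of Nr4a1 thus remained in Nr4a1-/- cells, and where along the gene they fall was not analysed here.

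**Figure D4:**
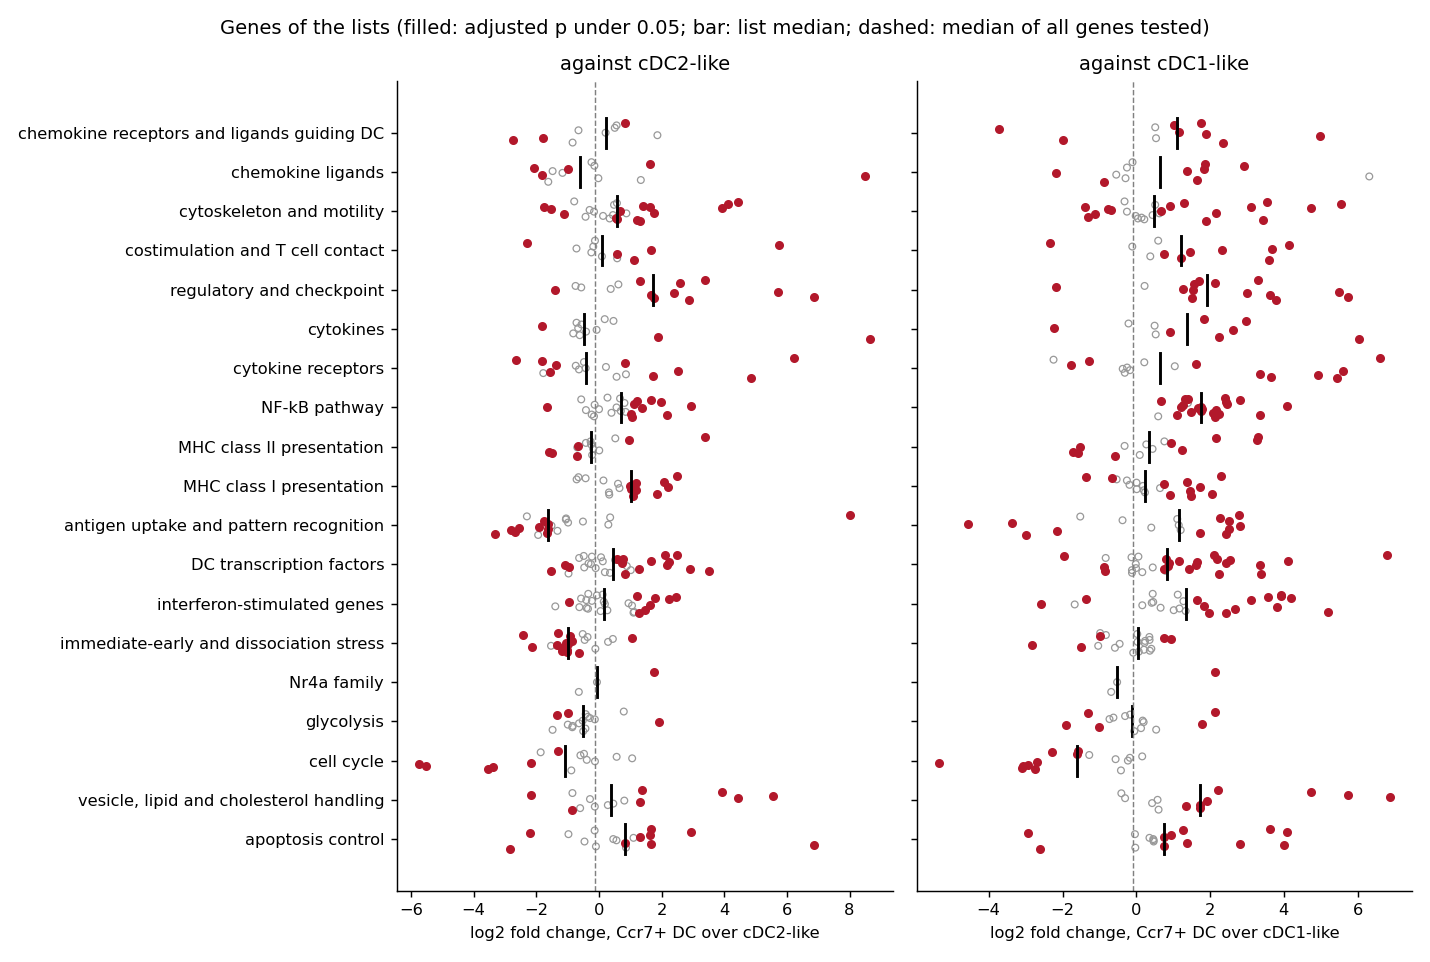
Log2 fold change of each tested gene of the 19 lists in Ccr7+ DC against cDC2-like (left) and cDC1-like cells (right); filled points passed the test, black bars are list medians and dashed lines the median of all genes tested. The regulatory list has medians of 1.71 and 1.92, the NF-kB list of 0.70 and 1.76, and the cell cycle list of -1.09 and -1.61.

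Markers of both subsets were among the genes called. Of 8 cDC2 markers tested, 0 rose and 5 fell against cDC2-like cells, and 7 rose and 0 fell of 9 tested against cDC1-like cells. Of 4 cDC1 markers tested, 2 rose and 2 fell against cDC2-like cells, and 0 rose and 5 fell of 5 tested against cDC1-like cells. Both other classes were gated on markers of these subsets, so the counts are not independent of the gates. They do not show to which subset the members belong. By cell, Sirpa had a UMI in 48.4% of members, against 9.86% of B cells and 95.3% of microglia. Wdfy4 had one in 28.6% of members, below the 68.7% of B cells and the 58.9% of microglia. The defining genes Xcr1, Clec9a and Cd209a were found in 3, 4 and 9 members, or 3.3%, 4.4% and 9.89%, against 0.248%, 0.682% and 1.36% of B cells. At this depth a cell without a UMI of these genes cannot be assigned to a subset.

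Beyond the lists, several genes had no or few UMIs in one or both of the other DC classes. Slco5a1, an anion transporter relative, stood at 276, 87.8, 81.6 and 42.7 CPM and had no UMI in either other class, so that it was at least 49.7-fold higher than in cDC2-like and 71.2-fold higher than in cDC1-like cells. Apol7c, an apolipoprotein L that acts in cross-presentation, stood at 1001, 42, 68 and 79.4 CPM, and was at least 59.7-fold higher than in cDC2-like cells. The Apol7c UMIs of Nr4a1-/- control and of Nr4a1-/- laser each came from 1 cell, and 1 cell held 53.6% of those of WT control. Both are on the marker list of migratory DC. Tmem150c, a membrane protein, was at least 39.7-fold and 56.8-fold higher. Slc22a23 stood at 203, 85.2, 40.8 and 55 CPM, with no UMI in cDC2-like cells (at least 45.7-fold higher) and 12.6 to 39 CPM in cDC1-like cells. The nuclease gene Dnase1l3 stood at 29, 51.1, 326 and 134 CPM, with no UMI in cDC2-like cells (at least 43.7-fold higher), but the WT libraries lay within the 25.1 to 67.3 CPM of cDC1-like cells. Mreg, which acts in organelle transport, stood at 1074, 493, 584 and 421 CPM against 0 to 42.9 and 0 to 2.18 (5.40 ± 0.36 SE, adjusted p = 5.9e-45), and had 1 UMI in cDC1-like cells, a ratio of 1212-fold, 95% interval 217 to 47966. Dscam, an adhesion molecule, stood at 493, 181, 136 and 91.6 CPM and had no UMI in cDC1-like cells, at least 142-fold higher. Ankrd33b had 207 UMIs against 3 in cDC1-like cells, a ratio of 149-fold, 95% interval 50.2 to 728. On the other side, Il1rl1, the IL-33 receptor, had 1 UMI in the members against 55 in cDC2-like cells (0.0274-fold, 95% interval 0.000681 to 0.159), and Ltb4r1, the leukotriene B4 receptor, 9 against 222 (-3.79 ± 0.50 SE, adjusted p = 4.3e-12). Tppp3 (-4.56), Clec4a2 (-4.07), Skint3 (1 UMI against 80), Pdlim1 (-3.64), Ckap2l (3 UMIs against 69) and Hepacam2 (-3.48) fell in the same comparison. Against cDC1-like cells, Sept3, Lyz1, Plce1, Fgd6, Sema4f, Pianp, E330020D12Rik and Gm42962 had no UMI in the members and 66 to 293 UMIs in cDC1-like cells.

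Laser was compared with control within each genotype by ratios of CPM, without a test, since each condition is 1 library. Of 2631 genes that reached 10 UMIs in 1 library of each pair, 127 were at least 2-fold higher in both genotypes (4.83%) and 39 at least 2-fold lower (1.48%). With TMM scaling over the libraries the counts were 231 and 17, so the balance of higher and lower genes depends on the scaling. The members were 7 and 6 cells in the control libraries, so single cells weigh heavily. Intervals are exact and cover counting error only. Il12b was lower after laser, at 0.129 (0.105 to 0.159) times the control in WT and 0.248 (0.186 to 0.327) times in Nr4a1-/-. Il12b was found in 4 of 7 and 3 of 6 control cells and in 26 of 57 and 7 of 21 laser cells, and 1 cell held 81.6% of the Il12b UMIs in Nr4a1-/- control. Ccl5 was lower as well, at 0.481 (0.443 to 0.523) and 0.192 (0.166 to 0.221) times the control. Bcl2l14 stood at 0.253 (0.172 to 0.382) and 0.0529 (0.0219 to 0.11) times the control, with 69.4% and 69.1% of the UMIs of the control libraries in 1 cell each. Of T cell costimulators, Tnfsf9, the ligand 4-1BBL, stood at 0.204 (0.123 to 0.35) and 0.207 (0.0646 to 0.585), and Icosl at 0.217 (0.0999 to 0.508) and 0.123 (0.022 to 0.464). The costimulation list did not move as a whole. Its gene Tnfrsf9 was higher after laser, at 5.1 (1.38 to 42.7) and 7.49 (2.42 to 37.5) times the control. Tmem39a at 0.258 (0.175 to 0.389) and 0.246 (0.128 to 0.459), Adam23 at 0.289 (0.197 to 0.432) and 0.283 (0.145 to 0.538), Gramd3 at 0.271 (0.142 to 0.553) and 0.0749 (0.00814 to 0.336) and the cDC1 gene Cadm1 at 0.301 (0.117 to 0.916) and 0.206 (0.0911 to 0.437) complete the named genes that were lower. In WT and Nr4a1-/- control, 1 cell held 84.6% and 58.3% of the Gramd3, 70% and 63.6% of the Icosl and 47.2% and 77.8% of the Adam23 UMIs. For Tnfsf9 these shares were 52.2% and 46.2%, for Ccl5 39.2% and 51.6% and for Tmem39a 41.7% and 32.3%.

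The named genes with the highest laser ratios were mostly macrophage genes, whose UMIs came largely from few cells. Lyz2, the lysozyme of myeloid cells, stood at 43.5, 1086, 54.4 and 3609 CPM, and its laser level was 24.9 (8.5 to 121) times the control in WT and 66.4 (25.8 to 244) times in Nr4a1-/-. Apoe, a lipid carrier, stood at 0, 1421, 13.6 and 3414 CPM, at least 32.6-fold higher in WT and 251 (44.9 to 9938) times the control in Nr4a1-/-. The complement genes C1qa, C1qb and C1qc stood at 14.5, 321, 0 and 769, at 29, 444, 13.6 and 873 and at 0, 281, 0 and 409 CPM. A single cell held 83.6% of the Apoe, 62.9% of the Lyz2 and 66.5% of the C1qa UMIs of WT laser members. In Nr4a1-/- laser the largest share in 1 cell was 43.5% for Apoe and 32.8% for Lyz2. Detection at a low level was wider, with a median of 1 UMI for both genes in both laser libraries. Apoe was found in 40 of 57 WT and 12 of 21 Nr4a1-/- laser cells, against 0 of 7 and 1 of 6 control cells. Lyz2 was found in 35 of 57 and 12 of 21 laser cells, against 1 of 7 and 1 of 6 control cells. Apoe was also higher in the laser libraries of cDC2-like cells, at 161, 1666, 185 and 4766 CPM. The protease gene Ctsd stood at 0, 270.1, 40.8 and 366 CPM, with 69.9% of the WT laser UMIs in 1 cell. Bmyc at 7.86 (1.37 to 314) and 8.09 (1.28 to 337) and St6galnac3 at 6.41 (1.11 to 257) and 7.64 (1.96 to 65.6) were higher as well. The part of the macrophage markers in these ratios was not tested.

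Of the chemokine ligands and cytokines with at least 10 UMIs in a library, Cxcl2 at 2.24 (0.846 to 8.37) and 7.04 (2.27 to 35.4) and Ccl17 at 2.03 (0.531 to 17.3) and at least 3 times the control were past 2-fold higher in both genotypes. Ccl17 came from few cells, since 1 cell held 57.8% of its UMIs in WT laser and 95% in Nr4a1-/- laser. Cxcl16 stood at 0.733 (0.576 to 0.945) and 0.86 (0.62 to 1.2) times the control, Il1b at 1.04 (0.875 to 1.25) and 1.96 (1.54 to 2.53), Ccl4 at 0.592 (0.368 to 1) and 0.189 (0.108 to 0.32) and Tgfb1 at 0.476 (0.272 to 0.89) and 1.44 (0.503 to 5.02). Ccl3, at 1.72 (0.444 to 14.7) and 0.234 (0.106 to 0.491), and Ccl6, at 0.524 (0.201 to 1.73) and 23.8 (4.09 to 958), lay on opposite sides of 1 in WT and Nr4a1-/-. Cxcl10, an interferon-induced chemokine, stood at 14.5, 378, 0 and 18.3 CPM, and its WT laser UMIs came from 10 of 57 cells. Ccl2 stood at 0, 61.6, 13.6 and 275 CPM, Ccl9 at 29, 43.3, 13.6 and 311, Ccl7 at 0, 13.1, 0 and 122, Ccl12 at 0, 72.1, 0 and 104, Cxcl1 at 0, 14.4, 122 and 0, Cxcl9 at 14.5, 70.8, 0 and 30.5 and Pf4 at 0, 11.8, 0 and 109.9. Il1a stood at 14.5, 43.3, 0 and 24.4 CPM, Il1rn at 29, 44.6, 0 and 97.7, Il10 at 0, 15.7, 0 and 6.11, Tnf at 29, 49.8, 0 and 61.1, Osm at 14.5, 36.7, 68 and 42.7, Csf1 at 14.5, 18.4, 13.6 and 0 and Vegfa at 102, 31.5, 0 and 12.2. Nr4a3 stood at 0.859 (0.691 to 1.08) times the control in WT and 0.518 (0.399 to 0.674) times in Nr4a1-/-, and Nr4a2 at 0.896 (0.588 to 1.43) and 0.774 (0.505 to 1.2).

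**Figure D5:**
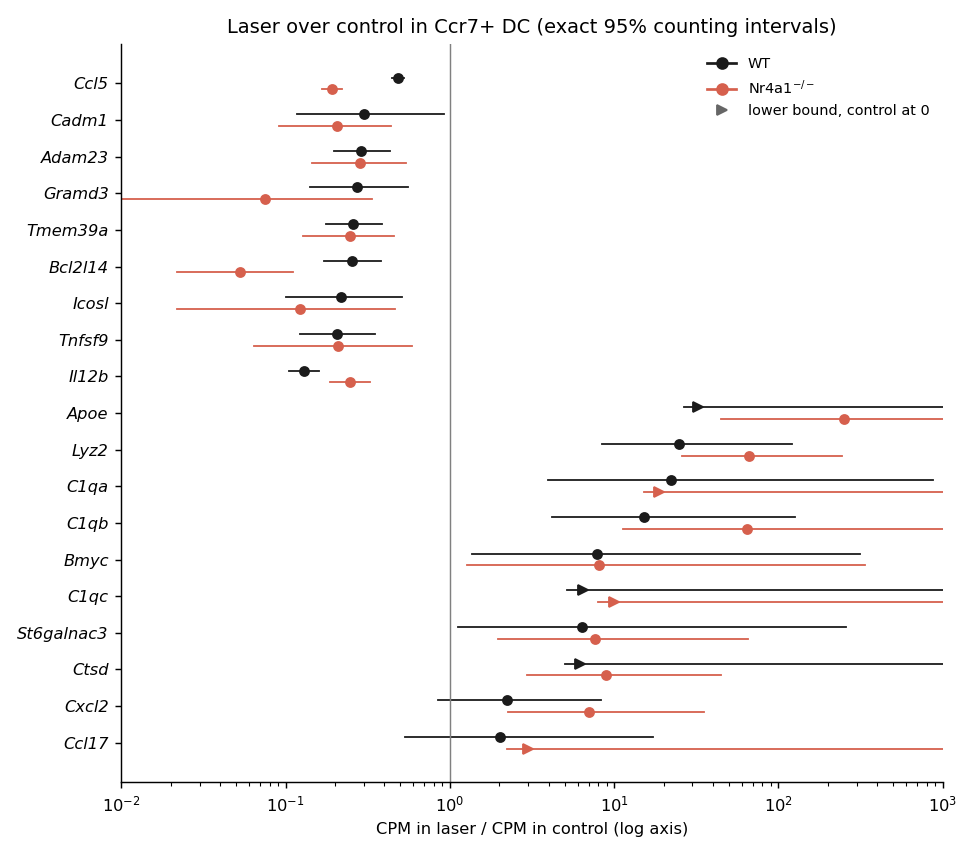
Ratio of laser to control CPM (log axis) in the Ccr7+ DC for the named genes past 2-fold in both genotypes, black for WT and red for Nr4a1-/-; lines are exact 95% counting intervals and arrowheads are lower bounds where the control library had no UMI. Il12b lies at 0.129 and 0.248, and Lyz2 at 24.9 and 66.4.

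Nr4a1-/- was compared with WT within each treatment in the same way. Members with exactly 2 of the 5 genes were 10 of 57 in WT laser and 7 of 21 in Nr4a1-/- laser. They were 1 of 7 in WT control and 1 of 6 in Nr4a1-/- control. Their part in the genotype ratios was not tested. Of 1501 genes with enough UMIs, 9 were at least 2-fold higher in Nr4a1-/- members in both control and laser eyes (0.6%) and 23 at least 2-fold lower (1.53%). Lgals3, which codes for galectin-3, stood at 145, 313, 408 and 1234 CPM, or 2.81 (1.34 to 6.44) times the WT level in control and 3.94 (3.25 to 4.77) times in laser eyes. In control it had 10 UMIs in WT and 30 in Nr4a1-/-, with 50% and 53.3% of them in 1 cell. The macrophage markers summed to 87.1, 1126, 54.4 and 2724 CPM over the libraries, and their part in the genotype ratios was not tested. Ifi27l2a, an interferon-stimulated gene, stood at 2.3 (1.1 to 5.13) and 3.82 (3.11 to 4.69) times, and the myeloid gene Wfdc17 at 5.85 (2.02 to 23.1) and 2.19 (1.7 to 2.81) times. Ctsc, a lysosomal protease, stood at 3.08 (1.28 to 8.49) and 2.45 (1.71 to 3.46) times, Nckap1l, of the actin regulatory WAVE complex, at 13.1 (1.99 to 554) and 2.27 (1.24 to 4.02), and Cadm1 at 3.75 (1.49 to 11.2) and 2.56 (1.11 to 5.61). Dnase1l3 stood at 11.2 (2.79 to 98.1) and 2.63 (1.48 to 4.54) times, but 1 cell held 86.4% of its Nr4a1-/- laser UMIs, and Stmn1, a tubulin-binding cell cycle gene, was at least 3.12 and 2.54 (0.772 to 7.49) times the WT level. Among the lower genes, Ankrd33b stood at 0.208 (0.0935 to 0.419) and 0.363 (0.177 to 0.67) times the WT level, and Gm47283 at 0.3 (0.117 to 0.685) and 0.221 (0.109 to 0.403). Il15 stood at 145, 39.3, 27.2 and 12.2 CPM, or 0.187 (0.02 to 0.879) and 0.311 (0.036 to 1.22) times. Smyd3 at 0.293 (0.0838 to 0.836) and 0.207 (0.0243 to 0.793), Prkce at 0.187 (0.02 to 0.879) and 0.252 (0.0294 to 0.976), Smad3 at 0.375 (0.0858 to 1.3) and 0.365 (0.0959 to 0.994) and Hk2 at 0.39 (0.108 to 1.19) and 0.403 (0.157 to 0.868) were lower on few UMIs. Ccl5 stood at 0.902 (0.809 to 1.01) times the WT level in control and 0.359 (0.317 to 0.406) in laser eyes, and Il12b at 0.866 (0.687 to 1.09) and 1.66 (1.27 to 2.15). These ratios cannot be told apart from differences of strain and of library.

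The precision rests on the depth of the members. The members of a library summed to 68897, 762719, 73574 and 163748 UMIs, so levels in the control libraries rest on the fewest UMIs. A member held 8689, 13049, 13059 and 7500 UMIs at the median. After thinning each cell to 2000 UMIs the laser share was 6.08 times the control in WT and 4.21 times in Nr4a1-/-.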

How the data were processed

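RNA and surface antibody tags (ADT) were measured in the same cells of 4 libraries, 1 per condition. Both are UMI counts that the authors deposited unnormalized after Cell Ranger 7.0.1 and the mm10 genome, and the labels and the methods differ on the version of the 10x kit. A barcode was kept if it had 200 to 5000 genes with a UMI and its mitochondrial share was 15% or less. The antibody samples were assigned by title, since their genotype and treatment fields disagree with their titles. The members and gene lists were chosen with earlier results of these data known.

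UMIs were summed per library and class. Genes found in 10% or more of a class's cells and ADT with at least 20 UMIs were tested with edgeR 4.0.16 (R 4.3.3; quasi-likelihood, TMM, library as block, 3 residual degrees of freedom, two-sided, Benjamini-Hochberg threshold 0.05). The procedure was tested on simulated data. DESeq2 1.42.0, other scalings and gates, thinning to 2000 UMIs per cell and leaving out each library were alternatives. Doublets were left in, and Scrublet scores (scanpy 1.11.5) were used for an alternative. Laser and genotype were compared by CPM ratios with exact 95% intervals that cover counting error only, since UMIs come from few pooled cells. Named genes were the gate genes, the Nr4a family, from each list the 6 or fewer that changed most against cDC2-like cells, up to 8 per direction beyond the lists with at least 50 UMIs and the same direction in all 4 libraries, the ADT past the threshold, up to 8 per direction for laser and for genotype, and the chemokine ligands and cytokines with at least 10 UMIs in a library. Other genes given for context were chosen after their values were seen. Promoters came from RefSeq (GRCm38.p6). Some genes that these rules name are not reported here.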

Additional observations from a re-analysis of the deposited data

Results flagged for a closer look

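Barcodes outside the limits of the gate also met the rest of it. Of barcodes with more than 5000 detected genes, 4 met the rule for Ccr7+ DC in the laser libraries (3 in WT and 1 in Nr4a1-/-), against 0 in the control libraries. Of barcodes with a UMI of Cd3e or Cd79a, 9 met the rest of the rule in the laser libraries (3 in WT and 6 in Nr4a1-/-), against 1 in the control libraries. The laser libraries also held more members (57 in WT and 21 in Nr4a1-/-) than the control libraries (7 and 6), and these counts were not set against that difference. Neither set of barcodes entered the comparisons above.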

How the results depend on the processing

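The laser shares of Ccr7+ DC kept their direction under each gate, doublet and thinning alternative. Within the DC, the Nr4a1-/- interval included 1 with 3 of 5 genes (0.871 to 9.08), 1 of 5 genes (0.925 to 3.88) and thinning (0.686 to 9.97). Beside 1237 genes called against cDC2-like cells, DESeq2 called 655 (653 shared in direction), thinning to 2000 UMIs per cell 320 (313 shared), and leaving out 1 library 487 (without WT laser, 476 shared) to 1089 (991 shared). Beside 1814 against cDC1-like cells the counts were 1148 (1139 shared), 525 (506) and 1049 (without WT laser, 999) to 1657 (1542). Thinning leaves fewer UMIs to test, and the cause of the other changes was not tested. Without the library as a replicate block, 1021 and 1811 genes were called, and 4 tags beside 9 and 3 beside 6. Scaling to total ADT UMIs gave 32 tags against cDC2-like cells. Against cDC1-like cells 10 tags were called per cell, 15 relative to RNA UMIs (both chosen after seeing the data), and 0 (without Nr4a1-/- laser) to 7 with 1 library left out. Beside 166 genes past 2-fold after laser, a fold of 3 gave 50, a minimum of 20 UMIs 69 and thinning 37, and TMM scaling gave 231 higher and 17 lower. Beside 32 for genotype these gave 4, 14 and 10, and TMM gave 7 higher and 28 lower. Over all called genes, the sign turned in 10 against cDC2-like and 33 against cDC1-like cells after thinning, in 2 and 3 without WT laser, in 1 and 2 without the upper limit on genes, in 5 with 3 of 5 genes (cDC1-like) and in 1 with only laser libraries (cDC2-like). Among the named genes it reversed for Usp18 (-0.10, thinned) and Lpl (0.33, no upper limit on genes) against cDC2-like cells. It also reversed for Clec10a (-1.34, 3 of 5 genes, and -0.068, thinned), Lyz1 (0.14) and Ccl2 (0.018, both without the upper limit) against cDC1-like cells.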
